A study of Rattus norvegicus with 4 samples.

Results

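Blood vessels of the kidney were followed here through 10 genes: Icam1, Vwf, Kdr, Esam, Pecam1 and Cdh5 of the endothelium, and Mylk, Smtn, Acta2 and Myh11 of the smooth muscle that surrounds it. The members are all probe sets whose platform annotation gives 1 of these symbols alone. That rule found 9 of the 15923 probe sets on the array, 1 for each gene except Cdh5, for which it found none, so 9 of the 10411 genes with a symbol of their own. Cdh5, the VE-cadherin of endothelial junctions, was therefore not analysed here. A further 3 probe sets carry the symbols Acta2 and Actc1 together and were not used for either gene. They read at most 55.3 on any array.

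The series measured kidney RNA of male rats aged 9 weeks. The spontaneously hypertensive rat (SHR), an inbred strain with inherited high blood pressure, was compared with Brown Norway (BN), an inbred strain with normal blood pressure. Within each strain the animals had been given nicotine or saline prenatally. Each of the 4 groups is 1 array of RNA pooled in equal amounts, from 13 animals for SHR nicotine and from 12 for each of SHR saline, BN nicotine and BN saline, so the spread between animals was not measured and no group has a replicate.

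Endothelial cells line every vessel and hold to each other through adhesion molecules such as Pecam1, Esam and Cdh5. Kdr is the main receptor through which they respond to VEGF, and in the kidney it serves the fenestrated capillaries of the glomerulus, which depend on VEGF from podocytes. When inflammatory signals act through NF-kB, endothelial cells display Icam1, which leukocytes grip with their integrins, and Vwf is the glycoprotein that they store and release to catch platelets. Smooth muscle cells contract when Mylk phosphorylates the light chain of a myosin whose heavy chain is Myh11 and which pulls on the actin Acta2, while Smtn is a protein of their contractile filaments.

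The promoter windows of Icam1 and Acta2 are shown because the results turn on a single low array for the first, and because the second carries the control elements that smooth muscle genes are known for. Promoter sequences came from RefSeq on the build GRCr8, from 250 bases before to 50 after the start of the gene, and 5 of the 10 genes had an entry (Icam1, Kdr, Mylk, Smtn and Acta2). In Icam1, at chr8:27829595-27829894 on the plus strand, the capitals mark GGAAATTCC, a form of the NF-kB site, and TTCCGGGAA, a match to TTCNNNGAA, the general form of the STAT site. In Acta2, at chr1:241172454-241172753 on the minus strand, the capitals mark 2 elements that follow the CArG box, the binding site of serum response factor, with 1 other letter in its core.
Icam1 promoter: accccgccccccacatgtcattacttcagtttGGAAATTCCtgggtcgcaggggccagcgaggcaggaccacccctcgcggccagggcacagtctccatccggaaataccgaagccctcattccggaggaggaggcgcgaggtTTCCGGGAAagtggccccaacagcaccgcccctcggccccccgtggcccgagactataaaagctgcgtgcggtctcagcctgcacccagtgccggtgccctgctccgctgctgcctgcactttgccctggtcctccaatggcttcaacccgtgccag
Acta2 promoter: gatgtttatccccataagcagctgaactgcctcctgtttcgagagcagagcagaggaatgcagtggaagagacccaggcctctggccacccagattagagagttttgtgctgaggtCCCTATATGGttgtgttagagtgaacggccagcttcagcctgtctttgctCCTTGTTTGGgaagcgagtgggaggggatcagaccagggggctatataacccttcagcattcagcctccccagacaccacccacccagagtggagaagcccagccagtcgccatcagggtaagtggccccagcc

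Searched on both strands, GGAAATTCC occurs in 0.332% of 33469 promoter windows of the same length and TTCNNNGAA in 8.87%. The Icam1 matches begin 218 and 107 bases before the start and do not overlap each other. The Acta2 elements read CCCTATATGG and CCTTGTTTGG, 134 and 84 bases before the start, and 8.1% of windows hold a CArG box with 1 other letter in its core. The strict CArG box was in 1.64% of windows and in none of those of the 5 genes, and of the other 4 genes with an entry only Kdr held the 1-letter variant, CCCTTATTGG. These are matches of letters in windows of the reference sequence, and binding was not measured.

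Values are MAS5 signals, an array intensity of arbitrary scale that compares 1 probe set across arrays and not probe sets with each other. Between 58.9% and 60.7% of all probe sets on an array reached the floor of 44.5, the 40th percentile of signals, to which lower values were raised before log2 ratios were taken. Measured means that the higher of the values compared reached 89.0, or 2 times the floor. All 9 member probe sets reached that level on at least 1 array and 7 did so on all 4 arrays. Kidney markers were bright, with Slc34a1 of the proximal tubule at 3872 to 5024 and Umod of the thick ascending limb at 4044 to 5260. The 3' to 5' signal ratio of the beta-actin control, a sign of RNA integrity, went with strain, at 1.39 and 1.34 in SHR saline and nicotine against 1.54 and 1.49 in BN. That of the hexokinase control ran the other way, at 2.81 and 2.27 in SHR against 2.22 and 1.71 in BN, and was lower in the nicotine pool of both strains. The ratio of the Gapdh control lay between 1.0 and 1.11. The part of RNA integrity in the strain and nicotine results was not tested.

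**Figure D1:**
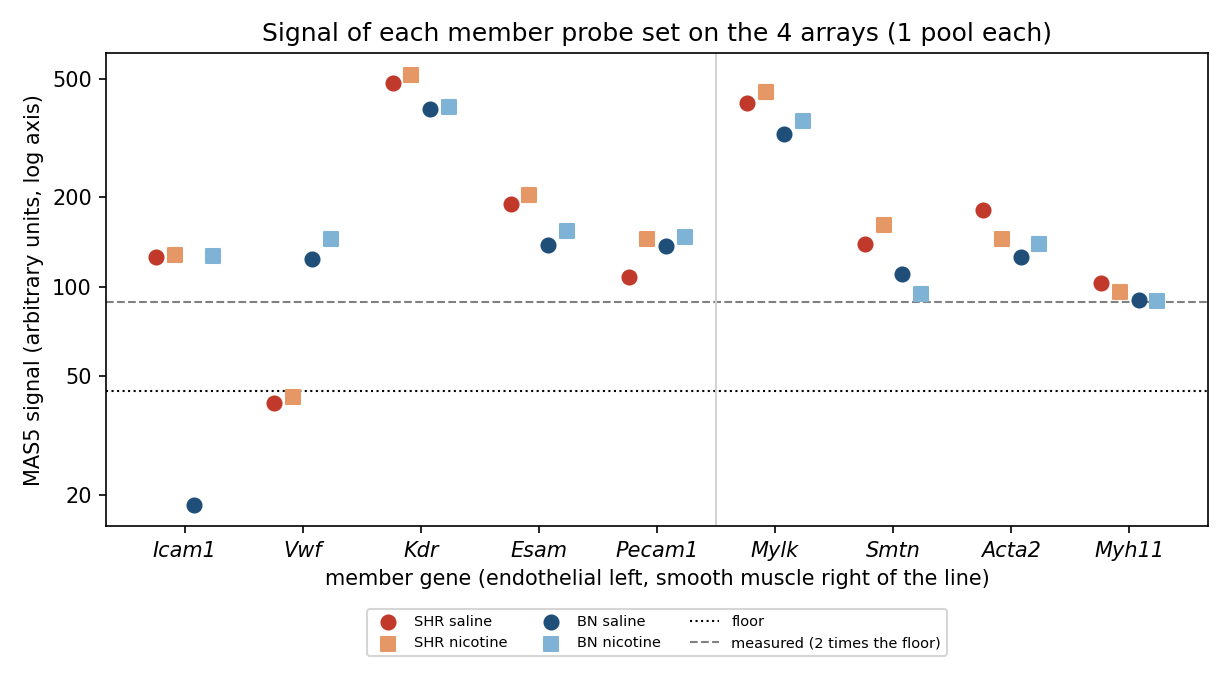
MAS5 signal (arbitrary units, log axis) of the 9 member probe sets on the 4 arrays, each point 1 pool, with the floor of 44.5 dotted and the measured level of 89.0 dashed. Icam1 is low in BN saline alone at 18.5, Vwf lies below the floor in both SHR pools, and the other 7 genes stay above 89.0 on every array.

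Vwf gave the clearest difference of the set, and it was one of strain. Its signal was 40.8 in SHR saline and 42.7 in SHR nicotine against 123.7 in BN saline and 144.0 in BN nicotine. Both SHR pools thus lay just below the floor and both BN pools well above the measured level. SHR was at least 2.78-fold lower under saline and at least 3.24-fold lower under nicotine. Averaged over treatments the log2 difference, SHR minus BN, was -1.58 (SE 0.19, adjusted p = 7.88e-06 with limma). Because the SHR values were raised to 1 floor, that error rests on the BN pools and on probe sets of similar signal. In fits of strain alone without 1 array, its log2 difference ran from -1.69 to -1.48. Without either SHR array it stayed at -1.58, as it had to with both SHR values at the floor. Only the fits without a BN array could move it. Only 11 of 7409 probe sets measured on some array shared its pattern of both SHR pools below the floor and both BN pools measured, and 15 showed the reverse.

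Vwf is also made by the precursors of platelets. Of 3 platelet markers on the array only Itga2b, the platelet integrin, reached the measured level, at 101.8 and 93.2 in the SHR pools and 88.3 and 110.4 in the BN pools. Its log2 difference between strains was -0.02. The chemokine Pf4 of platelet granules read 42.8 and 60.2 in SHR against 41.2 and 41.1 in BN. The summed signal of the platelet list ran from 190.8 to 200.9 in SHR and from 177.3 to 199.4 in BN. The part of platelets in the Vwf values was not tested.

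The other endothelial members did not follow Vwf. Kdr read 483.1 and 515.8 in SHR saline and nicotine against 394.5 and 402.6 in BN, so both SHR pools were above both BN pools. Averaged over treatments SHR exceeded BN 1.25-fold, a log2 difference of 0.33 (SE 0.08; limma adjusted p = 0.0106). Esam, an adhesion molecule of endothelial tight junctions, read 189.1 and 203.4 in SHR against 138.4 and 153.5 in BN, again without overlap. Its ratio of the strains was 1.35, a log2 difference of 0.43 (SE 0.12, limma adjusted p = 0.0199). Of the 5 endothelial members, 2 had both SHR pools above both BN pools and 1 the reverse. Over the 7409 probe sets measured on some array the shares were 30.4% and 28.1%. Pecam1, the junction molecule CD31, read 107.6 and 144.6 in SHR against 137.2 and 147.2 in BN, and here the strains overlapped. Its log2 difference was -0.19 (95% interval from -0.49 to 0.11), which includes both directions.

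In bulk tissue, fewer cells of a type and less RNA per cell cannot be told apart, for the endothelial genes as for those of smooth muscle. Within the endothelial set the strains differed in opposite directions: Vwf was lower in SHR, Kdr and Esam were higher, and Pecam1 did not pass the threshold.

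All 4 smooth muscle members were higher in both SHR pools than in both BN pools, and 2 of them passed the test. The same order held for 30.4% of the 7409 probe sets measured on some array, and the reverse order for 28.1%. Mylk, the myosin light chain kinase, read 412.3 and 451.1 in SHR saline and nicotine against 326.0 and 360.7 in BN. That is a 1.26-fold difference, or log2 0.33 (SE 0.09; limma adjusted p = 0.0123). Smtn read 138.8 and 160.4 against 110.4 and 94.6, a 1.46-fold difference, or log2 0.55 (SE 0.15; limma adjusted p = 0.0177). For Mylk the difference was alike under saline and nicotine, at log2 0.34 and 0.32, while for Smtn it was 0.33 and 0.76.

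Acta2 and Myh11, the classical markers of the contractile cell, did not pass the test. Acta2 read 180.6 and 144.4 in SHR saline and nicotine against 125.8 and 139.4 in BN. The strains were 1.44-fold apart under saline and 1.04-fold under nicotine, and the average log2 difference of 0.29 did not pass (95% interval from -0.01 to 0.59, adjusted p = 0.185 with limma). Myh11 read 102.8 and 95.7 against 90.2 and 89.3, close to the level called measured, with a log2 difference of 0.14 (95% interval from -0.21 to 0.50, adjusted p = 0.605 with limma).

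**Figure D2:**
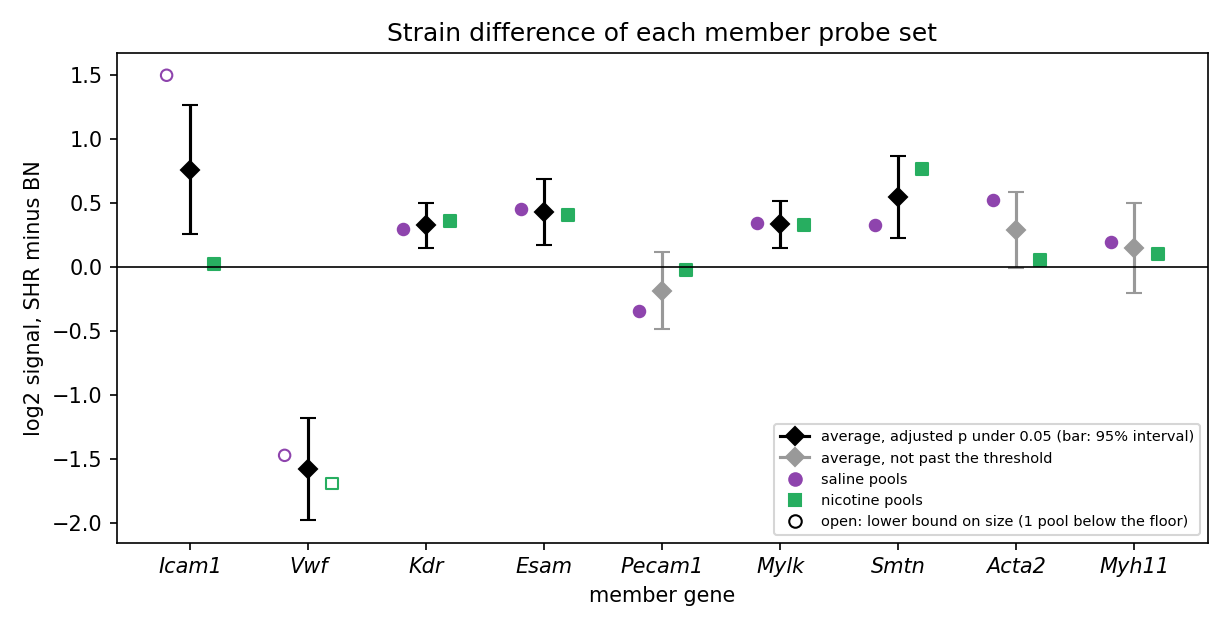
Log2 signal difference, SHR minus BN, of the 9 member probe sets. Diamonds are averages over treatments with the 95% interval of the limma fit, black where the adjusted p was under 0.05; circles are the saline pools, squares the nicotine pools and open symbols lower bounds. Vwf lies at -1.58, Mylk and Kdr at 0.33 under similar values in both treatments, and Icam1, at least 2.82-fold higher in SHR under saline, at 0.02 under nicotine.

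Counted over the set, 6 of 9 member probe sets passed for strain, 5 higher and 1 lower in SHR, against a background of 18.1% of the 7037 probe sets tested (8.67% higher and 9.42% lower). One of the 5 higher ones is Icam1, whose call rests on the single BN saline array. The median log2 difference was 0.33 over the 9 members and 0.002 over all probe sets tested. By single pools, 2 of 9 members were at least 1.5-fold apart under saline, Icam1 higher and Vwf lower in SHR, against 8.12% of all measured probe sets (4.17% higher and 3.95% lower). Under nicotine it was again 2 of 9, Smtn 1.70-fold higher and Vwf lower, against 8.44% (4.2% higher and 4.24% lower). Leaving out SHR saline, SHR nicotine, BN saline or BN nicotine, with strain as the only factor, left 2, 1, 1 and 2 members called, Vwf each time. Kdr then held without SHR saline (adjusted p = 0.0459 with limma) and Icam1 without BN nicotine. Esam, Mylk and Smtn passed in none of these fits, where their log2 differences ranged from 0.35 to 0.50, from 0.26 to 0.40 and from 0.43 to 0.66. In the same fits 5.27% to 8.61% of all probe sets passed.

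Icam1 was the one member that stood apart on a single array. Its signal was 125.6 in SHR saline, 128.0 in SHR nicotine and 126.2 in BN nicotine, but 18.5 in BN saline. The first 3 of these are nearly alike, and the BN saline value lies below the floor. In BN, nicotine was therefore at least 2.84-fold above saline, a bound set by the floor. Of the 6936 probe sets measured in BN 1.63% reached 1.5-fold (0.735% higher and 0.894% lower under nicotine). In SHR the same contrast was 1.02-fold. Between strains, the saline pools were at least 2.82-fold apart and the nicotine pools 1.01-fold. The average over treatments, log2 0.76 (SE 0.24, adjusted p = 0.0354 with limma), rested on that array. In fits of strain alone it was 0.007 without BN saline (adjusted p = 0.985), 0.77 without SHR saline (adjusted p = 0.443), 0.75 without SHR nicotine (adjusted p = 0.472) and 1.51 without BN nicotine (adjusted p = 0.009), all with limma. After quantile normalisation and cyclic loess its adjusted p was 0.205 and 0.211 with limma. Icam1 has 1 probe set on this array and BN saline is 1 array, so a low level in those animals and a low reading of that probe set cannot be told apart.

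Few probe sets behaved like Icam1. With 1 array below the floor and the other 3 at the measured level, 2 probe sets were low in BN saline, 1 in SHR saline, and 0 in SHR nicotine and in BN nicotine. The other one low in BN saline was Tecpr1, a factor of autophagy, at 18.2 there against 99.9 to 118.9 elsewhere. It was also the nearest to Icam1 by Euclidean distance of the 4 centred log2 values, at 0.29 among 6404 named probe sets. The next nearest were Ipo7 at 0.44, Kcnk5 at 0.58, Tmcc2 at 0.59 and Exd2 at 0.60. None of them fell as far in BN saline as Icam1 and Tecpr1 did: Ipo7, an import receptor of the nucleus, read 138.8 there against 263.2 to 318.7 elsewhere. With 4 arrays this likeness is a description of level patterns only.

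Partners and controllers of Icam1 were set beside it. Vcam1, the related molecule that endothelial cells display with it, read 67.9 in BN saline and 90.9 in BN nicotine against 93.7 and 101.0 in SHR saline and nicotine. Irf1, an interferon-induced factor, read 69.7 and 96.5 against 90.7 and 100.4, so both were lowest in BN saline but lay above the floor there. Of the NF-kB subunits, Rela read 208.9 and 192.8 in BN saline and nicotine against 197.4 and 191.4 in SHR saline and nicotine. Nfkb1 read 181.5 and 184.1 in BN against 218.4 and 218.8 in SHR. Nfkbia, the inhibitor that holds NF-kB in the cytoplasm, read 127.7 and 129.0 in BN saline and nicotine but 130.5 and 72.8 in SHR saline and nicotine. It was the 1 probe set of the 15 measured in this list that was past 1.5-fold for nicotine in SHR. Over all 7081 probe sets measured in SHR 1.98% were (1.07% higher and 0.904% lower under nicotine). Whether Nfkbia bears on the Icam1 values was not tested. The selectins Sele and Selp, and Tnf, Il1b and Il6, which induce Icam1, stayed below the floor on all 4 arrays, as did Itgam, a chain of the leukocyte integrin that binds it. Changes in them were not detectable here. Over all probe sets tested 18.1% passed for strain and 0% for nicotine. Among these genes of leukocyte adhesion and NF-kB control, 0 of 15 probe sets tested passed for strain or for nicotine with limma. The largest strain differences were log2 -0.40 for Nfkbia (adjusted p = 0.151) and 0.31 for Vcam1 (adjusted p = 0.263).

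Icam1 is also made by leukocytes, and some of their markers differed between the strains. Of 13 markers on the array 6 reached the measured level, and 3 stayed below the floor on all arrays, among them Ptprc, which defines leukocytes, and Cd3e of T cells. Of 5 probe sets tested, 3 passed as higher in SHR and 0 as lower, against the 18.1% that passed over all probe sets. They were C1qa 1.88-fold, the lysozyme Lyz2 1.70-fold and Fcer1g 1.29-fold (adjusted p = 0.000894, 1.89e-07 and 0.0188 with limma). By direction alone all 5 were higher. Csf1r, the receptor of the macrophage growth factor, had a log2 difference of 0.06 and Cd74, the invariant chain, of 0.21 (adjusted p = 0.858 and 0.0501), and neither passed. Other markers above the floor on some array were too dim for the strain test. Laptm5 read 71.5 and 82.3 in SHR against 75.4 and 94.9 in BN, and Tyrobp 67.7 and 82.0 against 68.2 and 38.8. Higher in both SHR pools were C1qb at 66.9 and 57.4 against 34.1 and 24.7 in BN, and Cd68 at 47.8 and 53.7 against 15.8 and 10.6. So was Cd4 at 80.2 and 71.6 against 42.3 and 63.7. The summed signal of the list, most of it from Lyz2 and Cd74, was 3898 and 4501 in SHR saline and nicotine against 2975 and 3267 in BN. The part of leukocytes in the Icam1 values was not tested.

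Prenatal nicotine left most members close to their saline level. In SHR, 0 of 8 measured members were at least 1.5-fold apart, against 1.98% of 7081 probe sets (1.07% higher and 0.904% lower), and in BN 1 of 9, which was Icam1. The median log2 ratio of the members was 0.10 in SHR and 0.15 in BN, against -0.01 and 0.00 over all measured probe sets, whose SD was 0.21 and 0.20. Pecam1 had the largest ratio in SHR, 144.6 against 107.6 or 1.34-fold, where SHR saline was the lowest of the 4 arrays. In BN it was 1.07-fold higher. Esam was 1.08-fold higher in SHR and 1.11-fold in BN, and Kdr 1.07-fold and 1.02-fold. Vwf was 1.16-fold higher in BN (144.0 against 123.7) and below the floor in both SHR pools.

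Among the smooth muscle members the direction was mixed. Mylk was 1.09-fold higher under nicotine in SHR and 1.11-fold in BN. Smtn was 1.16-fold higher in SHR and 1.17-fold lower in BN, and Acta2 was 1.25-fold lower in SHR and 1.11-fold higher in BN. Myh11 was 1.07-fold lower in SHR and 1.01-fold lower in BN. None of these ratios has a replicate, and whether the strains differ in their response was not tested, since the 4 arrays leave nothing to estimate its error from.

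**Figure D3:**
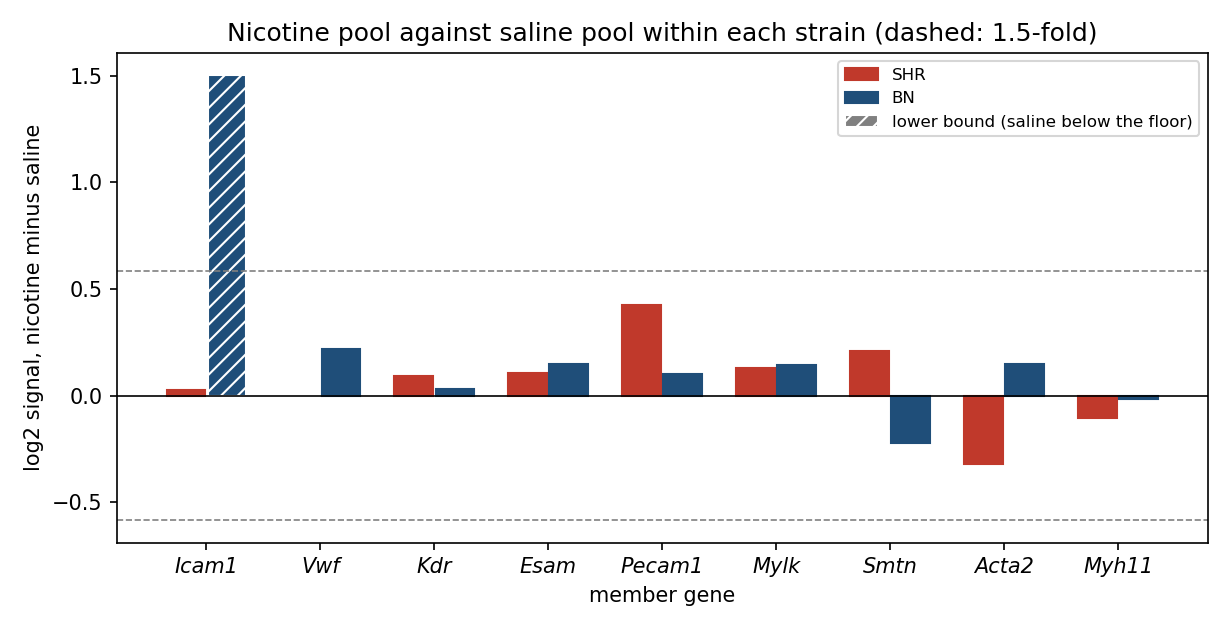
Log2 signal, nicotine minus saline, for each member within SHR and within BN, with dashed lines at 1.5-fold. Icam1 in BN is a lower bound of 2.84-fold and the only bar past 1.5-fold; Vwf has no SHR bar because both pools lay below the floor.

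Averaged over strains, 0 of 8 members passed for nicotine with limma, against 0% of 6924 probe sets, and 1 member, Icam1, had an unadjusted p under 0.05, as did 376 of all probe sets. Its log2 average was 0.77 (SE 0.25, adjusted p = 0.604 with limma), and it was 0.02 without BN saline and 1.51 without SHR saline in fits of treatment alone. The 95% intervals bound what the other members could have changed by, given the residual of the fit. That residual also holds any difference in response between the strains. For Kdr the interval ran from -0.11 to 0.24, for Mylk from -0.05 to 0.32, for Esam from -0.13 to 0.38 and for Pecam1 from -0.04 to 0.57. For Smtn, Acta2 and Myh11 they ran from -0.33 to 0.32, from -0.39 to 0.22 and from -0.41 to 0.30.

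Other genes of the vessel wall were taken in 8 lists without the members. Together 13 of 87 probe sets tested passed for strain, 6 higher and 7 lower in SHR, which is 14.9% against the background of 18.1%, with a median log2 difference of 0.01. After quantile normalisation 6 passed, as after cyclic loess, where 10.6% and 11.6% of all probe sets did. Without SHR saline, SHR nicotine, BN saline and BN nicotine 7, 4, 3 and 3 passed, against 8.49%, 8.61%, 5.55% and 5.27% of all probe sets. For nicotine 0 of 88 passed with limma, against 0% of 6924 probe sets. Of the 88, 2 had an unadjusted p under 0.05 in that fit, S1pr1 and Nfkbia, as did 376 of the 6924.

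Of 17 probe sets of endothelial identity and junction genes, 0 passed as higher and 3 as lower in SHR. By direction alone 8 of 17 were higher, with a median of -0.05. Over all probe sets tested 18.1% passed, 8.67% higher and 9.42% lower. Ramp2, the partner of the adrenomedullin receptor, was 1.45-fold lower (adjusted p = 0.0269 with limma). The other 2 measure Ocln, the tight junction protein occludin that tubular epithelium also makes, 1.38-fold and 1.43-fold lower (adjusted p = 0.00872 and 0.0223). Emcn, endomucin of capillaries and veins, read 485.4 and 539.0 in SHR saline and nicotine against 468.0 and 471.4 in BN, and Plvap, the diaphragm protein of fenestrated endothelium, read 443.3 and 393.4 against 432.8 and 394.4. Neither passed. Nos3, the endothelial nitric oxide synthase, stayed below the floor on all arrays, so it was not measured here. Under nicotine the largest difference of the list was S1pr1, a receptor that steadies endothelial junctions, at 139.0 against 87.6 in SHR and 138.7 against 113.7 in BN (log2 average 0.48, adjusted p = 0.587 with limma).

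Of 8 probe sets of endothelial transcription factors, 2 passed as lower in SHR and 0 as higher. By direction alone 1 of 8 was higher, with a median of -0.16. The background for this and the next list was 9.42% lower and 8.67% higher. Epas1, the hypoxia factor HIF-2 alpha, was 1.48-fold lower at 359.9 and 458.4 in SHR against 617.0 and 588.9 in BN (adjusted p = 0.000277 with limma). A dimmer probe set of the same gene had a log2 difference of -0.16, which did not pass. Klf2, a factor induced by blood flow, was 1.30-fold lower at 136.5 and 137.8 against 178.0 and 177.8 (adjusted p = 0.0478), and its other tested probe set, at a log2 difference of -0.13, did not pass. In the list of VEGF, angiopoietin and Notch signalling 1 of 8 passed with a median of 0.11: Jag1, a Notch ligand, was 1.54-fold higher in SHR (adjusted p = 0.036). Its SHR pools read 125.2 and 96.7, and its BN pools 61.2 and 83.2.

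Coagulation and vasoactive factors went both ways. Of 9 probe sets 3 passed as higher and 2 as lower in SHR, with a median of 0.03. The background was 8.67% higher and 9.42% lower. F3, the tissue factor that starts clotting, was 1.43-fold higher in SHR, while Plat, the tissue plasminogen activator that endothelial cells release, was 1.45-fold lower (adjusted p = 0.00196 and 0.00233 with limma). The 2 enzymes that clear the inhibitor of nitric oxide synthesis moved apart: Ddah1 was 1.37-fold higher and Ddah2 1.53-fold lower (adjusted p = 8.73e-05 and 0.0109). The fifth was Plau, urokinase, at 2587 and 2836 in SHR against 2445 and 2245 in BN, 1.16-fold higher (adjusted p = 0.0452), while its other probe set was 1.02-fold apart and did not pass.

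For each list that follows, the background was 18.1% passed, 8.67% higher and 9.42% lower. In the list of smooth muscle contraction and cytoskeleton 1 of 23 probe sets passed, with 16 of 23 higher in SHR and a median of 0.10. It was Myh9, a non-muscle myosin heavy chain found in many cells, 1.23-fold higher (adjusted p = 0.0135 with limma). The regulators of smooth muscle transcription gave 0 of 5 passed and a median of 0.01, with Smad3, a mediator of TGF-beta signals, at -0.13 and Crip2 at -0.03. Pericyte and mesangial markers gave 1 of 2, and that one was Anpep, 1.68-fold higher (adjusted p = 2.28e-07), an aminopeptidase that also fills the brush border of the proximal tubule. Rgs5 and Cspg4, which define pericytes, stayed below the floor on all arrays. Of 6 probe sets of fibroblast markers, which share the vessel's outer coat, 2 passed as higher and 0 as lower, with a median of 0.20. These were the collagens Col3a1, 1.64-fold, and Col1a2, 1.44-fold higher in SHR (adjusted p = 8.42e-05 and 0.0343), with another Col1a2 probe set at 1.10-fold that did not pass. The summed signal of the fibroblast list was 1762 and 1738 in SHR against 1446 and 1527 in BN, and its part in the smooth muscle results was not tested.

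In nicotine averages over strains the 2 largest log2 differences of each vessel list were taken, and none passed (adjusted p from 0.587 to 0.998 with limma). They were 0.48 for S1pr1 and -0.21 for Egfl7 in endothelial identity, and 0.16 for Gata2 and 0.14 for Epas1 in transcription factors. Notch1 stood at 0.24 and the growth factor Vegfb at -0.22, and in the adhesion and NF-kB list Nfkbia stood at -0.41 and Irf1 at 0.31. Ece1, which processes endothelin, stood at 0.22 and Plat at 0.20. In smooth muscle contraction Vcl, vinculin, stood at -0.21 and Tpm1, a tropomyosin, at -0.18, and in its transcription Tead1 at 0.10 and Smad3 at 0.09. Anpep stood at -0.05 and Pdgfra at -0.03.

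**Figure D4:**
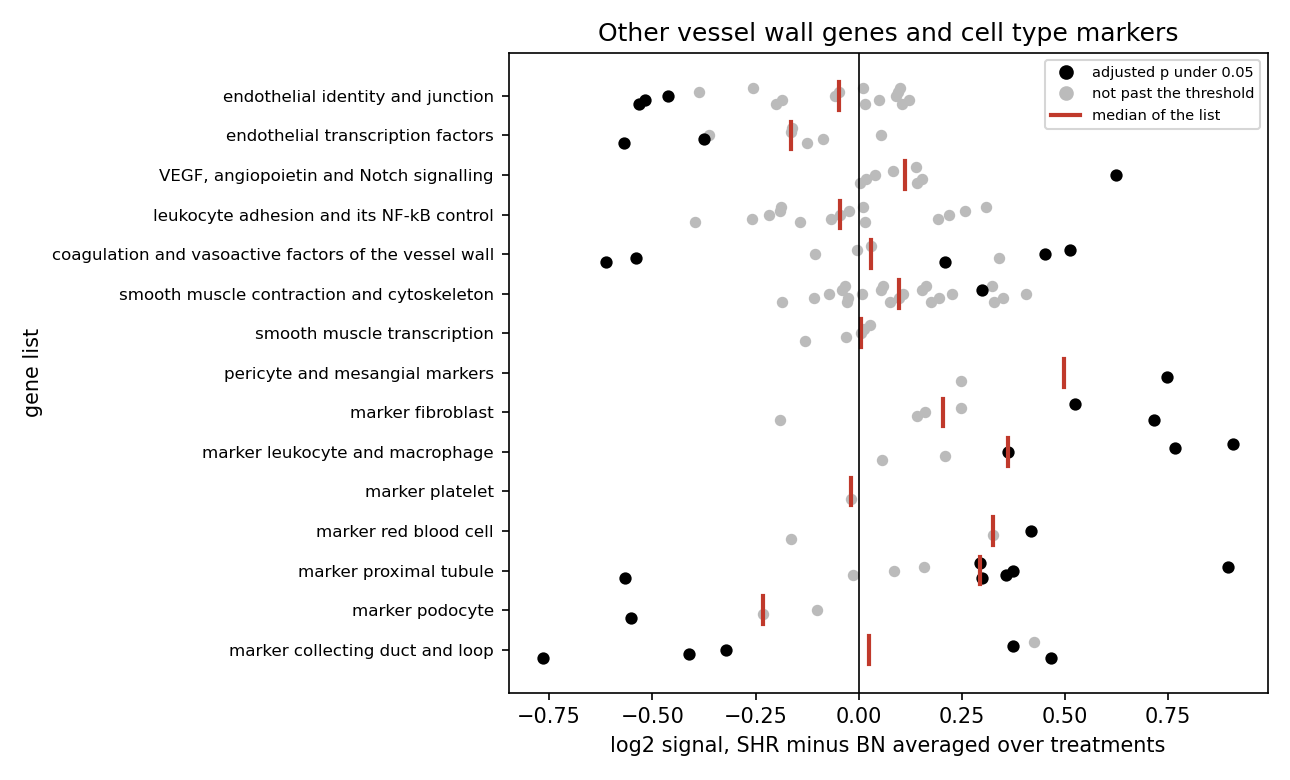
Log2 signal difference, SHR minus BN averaged over treatments, for each tested probe set of the vessel wall lists and of the marker lists, black where the adjusted p was under 0.05, with a red bar at each list's median. The lists of endothelial identity and of endothelial transcription factors have passing probe sets on the lower side, and coagulation factors on both sides. Over all probe sets tested 8.67% passed higher and 9.42% lower in SHR.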

How the data were processed

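Affymetrix RAE-230A arrays were read out as linear signal intensity, which the authors computed with MAS5 according to the submitters' processing notes. Its version was not given in the sources used here. Trizol was used for the RNA, per the labels' protocols. With a 2% trimmed mean of 150.0 on all 4 arrays, the intensities were kept as deposited, and the 57 control probe sets were left out. Of the other 15866 probe sets, 12783 had 1 platform symbol, 312 several and 2771 none.

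Signals were raised to the floor and log2-transformed. Comparisons of single pools were counted at 1.5-fold, without a test. Averages over the design were fitted with limma 3.58.1 in R 4.3.3 on all probe sets whose higher group mean was at least 89.0, as an additive model of strain and treatment with trended variances, calling a Benjamini-Hochberg adjusted p under 0.05. It leaves 1 residual degree of freedom (prior degrees of freedom were 16.51 in the strain fit and 14.04 in the nicotine fit). That residual holds array noise together with any difference in nicotine response between the strains, and these cannot be told apart. The errors, intervals and p-values rest on it and on probe sets of similar signal, and do not measure the spread between animals. On simulated arrays of 6956 probe sets, the strain fit recovered 45 of 63 changed 1.5-fold, 64 of 66 changed 2-fold and 66 of 66 changed 3-fold, with 5 false calls. The simulated noise depended on signal level alone, and a smaller share of probe sets was changed than the 18.1% that passed here. No drop on a single array was built in, so calls like that of Icam1 were not covered. The rate of false calls in the real data was not tested.

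The members, the gene lists and the rule for named genes (all members; in each list at most 4 called probe sets by size, or, where none was called, the 2 with the largest difference; the 5 nearest to Icam1) were chosen with earlier results of these data known. Rela, Nfkb1, Sele, Selp, Tnf, Il1b, Il6, Itgam, Nos3, Emcn, Plvap, Ptprc, Cd3e, Rgs5, Cspg4, Csf1r, Cd74, Laptm5, Tyrobp, C1qb, Cd68, Cd4, Pf4, Plau and the further probe sets of called genes were named after their values were seen. Alternatives changed the floor, scaling, filter, trend, unit, model and arrays used.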

Additional observations from a re-analysis of the deposited data

Results flagged for a closer look

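For 2 smooth muscle genes the nicotine pool lay on opposite sides of the saline pool in the strains, with 1 pool on each side, and the difference between strains was not tested. The nicotine minus saline log2 difference of Smtn was 0.21 in SHR and -0.22 in BN. That of Acta2 was -0.32 in SHR and 0.15 in BN. The SD over all measured probe sets was 0.21 in SHR and 0.20 in BN.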

How the results depend on the processing

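The count of 6 members called for strain was 3 of 3 tested with the floor at the 60th percentile (28.4% of all probe sets passed), 3 after quantile normalisation (10.6%), 3 after cyclic loess (11.6%), 1, Vwf, with untrended variances (8.7%) and 0 with no filter, where 0 of 15866 probe sets passed. It was 1 to 2 when single arrays were left out (5.27% to 8.61%). With the floor at the 60th percentile fewer members were measured, and the counts at 1.5-fold became 0 for nicotine in BN, 0 for strain under saline and 0 under nicotine; at 2-fold the last was 1. The nicotine count stayed 0 in every alternative. Of 359 single member values under alternatives, 306 kept direction and side of the threshold or moved within 1 SD. Many of these had no call to lose. Of the rest, 37 lost a strain call, 13 changed sign and 3 moved further. Strain calls lost and kept were 9 and 3 for Icam1, 8 and 5 for Esam and 8 and 4 for Smtn. They were 6 and 7 for Mylk, 5 and 8 for Kdr and 1 and 11 for Vwf. Without single arrays, Pecam1 ranged from -0.401 to 0.025 for strain. For nicotine, where such fits mix strain in, Kdr ranged from -0.12 to 0.24, Esam from -0.10 to 0.35, Mylk from -0.032 to 0.308, Smtn from -0.39 to 0.37, Acta2 from -0.35 to 0.17 and Myh11 from -0.153 to 0.036; Smtn, at -0.01 as reported, was 0.001 with log2(signal + 32) and 0.005 after quantile normalisation. The cause of these changes was not tested. With the floor at the 20th percentile the Icam1 difference in BN was 2.77. Signals below the floor limit what could be seen for Vwf in SHR and Icam1 in BN saline. No paired analysis was possible because the labels give no replicate numbers and each group is 1 array.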

Other observations

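Markers of other kidney cells were read against the 18.1% of all probe sets that passed for strain. Of 9 proximal tubule probe sets tested, 5 passed as higher and 1 as lower in SHR. By direction alone 7 of 9 were higher, with a median log2 difference of 0.29. Cubn, the endocytic receptor cubilin, passed as 1.48-fold lower. The largest rises were 1.86-fold and 1.28-fold for the probe sets of the phosphate carrier gene Slc34a1 and 1.30-fold for the glucose carrier gene Slc5a2. Of 3 podocyte probe sets tested, 1 passed as lower in SHR and 0 as higher. It measures Podxl, podocalyxin, which endothelial cells also carry on their surface. This probe set was 1.47-fold lower at 251.3 and 256.3 in SHR against 364.6 and 380.4 in BN (adjusted p = 0.000348 with limma). A dimmer Podxl probe set, not tested for strain, read 62.8 and 57.8 in SHR saline and nicotine against 59.9 and 47.0 in BN. Another stayed below the floor on all arrays. Of 6 probe sets of the loop, distal tubule and collecting duct, 2 passed as higher and 3 as lower. Umod was 1.30-fold and the sodium channel gene Scnn1g 1.38-fold higher, while the other Scnn1g probe set, 1.34-fold higher, did not pass. The salt carrier gene Slc12a1 was 1.70-fold and the water channel gene Aqp2 1.33-fold lower. Of 3 red blood cell probe sets a single one passed, 1.34-fold higher in SHR. It measures the anion exchanger gene Slc4a1, which intercalated cells of the collecting duct also express. The other Slc4a1 probe set, 1.25-fold higher, did not pass. For nicotine, 0 of these probe sets passed.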
